A study of Homo sapiens with 24 samples.

Results

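The retinoid genes described here are 10 genes that convert retinol or retinal, or that make, carry, break down or sense retinoic acid. The 10 are ALDH1A3, DHRS3, DHRS9, RDH10, RETSAT, CYP26B1, CRABP2, RARA, RARB and RARG. They were taken by gene symbol from the 60617 genes of the count table, and each of the 10 had 1 row. The cells were MDA686TU, an established malignant line from a squamous cell carcinoma of the head and neck, and no other line or cell type was sequenced. RNA sequencing covered 4 groups of 6 libraries, all harvested after 24 h: untreated control, 40 µM epigallocatechin-3-gallate (EGCG, a green tea catechin), 15 µM resveratrol (a stilbene of grapes), and the combination of both at the same doses. The stock of resveratrol was made in DMSO, that of EGCG in water. Whether the cells without resveratrol were given DMSO is not given in the sources used here, so effects of resveratrol and of its solvent cannot be told apart. Nor is it given whether the 6 libraries of a group came from separate cultures, so the p-values measure the spread between these libraries, which may be technical. In bulk RNA, fewer cells that use a gene and less RNA per cell cannot be told apart.

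Retinol (vitamin A) is oxidized to retinal and then, irreversibly, to retinoic acid, which enters the nucleus and binds the retinoic acid receptors RARα, RARβ and RARγ on DNA together with their partners, the retinoid X receptors. RDH10 and DHRS9 oxidize retinol, DHRS3 reduces retinal back to retinol, and ALDH1A3 is one of the retinal dehydrogenases that make retinoic acid. CYP26B1 breaks retinoic acid down, CRABP2 carries it to the receptors, and RETSAT saturates retinol to dihydroretinol. In squamous epithelium, retinoic acid is known for holding back keratinization, and expression of RARB is often lost in carcinomas of this tissue.

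Library totals ranged from 7034872 to 11735574 counts. All 10 markers of squamous epithelium were measured in every library, with KRT5 at 952 FPKM or more, while the 3 melanocyte markers (TYR at 0 in all 24) summed to at most 0.526 FPKM. Of these, PMEL, with 207 raw counts in all 24 libraries, was called higher with resveratrol (log2 fold change 0.74, edgeR adjusted p = 0.0539) and with the combination (1.01, edgeR adjusted p = 0.00655). Markers of leukocytes summed to at most 0.568 FPKM (fragments scaled to gene length and sequencing depth) and those of endothelium to at most 0.276 FPKM in any library. The 6 fibroblast markers, nearly all of whose signal was COL1A1, summed to 13.1 to 15.8 FPKM in the untreated control, 10.7 to 13.2 FPKM with EGCG, 15.4 to 18.4 FPKM after resveratrol and 17.99 to 20.8 FPKM with both agents. COL1A1 was called lower with EGCG (-0.27, edgeR adjusted p = 0.00215) and higher with resveratrol (0.29) and with the combination (0.48). The squamous markers summed to 6048 to 6321 FPKM in the control and 5087 to 5490 FPKM with the combination. The part of these shifts in the results was not tested. Replicates 1 to 3 of each group differed from replicates 4 to 6 in the share of mitochondrial transcripts (0.249% to 0.326% of counts against 0.448% to 0.775%). The labels name no batch for this division. Both sets have 3 libraries from each of the 4 groups, and values within a set are given for most of the calls that they change.

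The level of the 10 genes was compared per gene length, in FPKM. In the untreated control, ALDH1A3 had the highest level of the 10 at 16.8 ± 0.739 FPKM (SD, n = 6), and its 6 libraries did not overlap those of CRABP2, the next gene, at 12.3 ± 2.05 FPKM. The libraries of CRABP2 overlapped those of RARA at 11.4 ± 0.859 FPKM. RARG (9.54 ± 0.680 FPKM), RETSAT (9.04 ± 0.509 FPKM) and DHRS3 (9.02 ± 0.546 FPKM) followed below RARA and overlapped in this order. RDH10 at 2.18 ± 0.259 FPKM and CYP26B1 at 1.49 ± 0.124 FPKM stood apart from each other and from their other neighbours. The remaining pair lay far lower, DHRS9 at 0.165 ± 0.0412 FPKM and RARB at 0.0199 ± 0.0155 FPKM.

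With EGCG, ALDH1A3 kept the first place at 12.2 ± 0.456 FPKM, and its libraries now overlapped those of RARA. With resveratrol and with the combination it was the sixth of the 10 genes, at 3.40 ± 0.287 and 3.42 ± 0.262 FPKM, apart from RARG above it and RDH10 below it. In both of these groups the first 2 places were taken by CRABP2 (16.4 ± 1.304 and 15.3 ± 4.14 FPKM) and RETSAT (14.5 ± 0.508 and 14.8 ± 0.650 FPKM), whose libraries overlapped.

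A gene was called changed when the quasi-likelihood test of edgeR, fitted to the raw counts of all 24 libraries, gave a Benjamini-Hochberg adjusted p under 0.1 over the 15476 genes tested and an unadjusted p under 0.05. Of the 10 genes, 8 passed the filter on low counts and were tested, and DHRS9 and RARB did not pass. With EGCG, 3 of the 8 were called, RETSAT higher and ALDH1A3 and RARG lower, where 1.76% of all tested genes were called (0.905% higher and 0.859% lower). With resveratrol 6 of 8 were called (RETSAT, CRABP2 and DHRS3 higher, ALDH1A3, CYP26B1 and RARA lower), where 56.9% of all tested genes were (28.9% higher and 28% lower). The combination had 7 of 8 called, these 6 and RARG lower, where 59.8% of all tested genes were (29.9% higher and 29.9% lower). Treated and control libraries did not overlap for 1 of the 8 genes in the comparison of EGCG, for 5 in that of resveratrol and for 4 in that of the combination, where 1.58%, 31% and 31.9% of all tested genes did not. The counts with resveratrol and the combination stand against a background in which most genes were called, and they are no result about the retinoid genes as a group. Nor is the count with EGCG: the calls of RETSAT and RARG were lost within each set of replicates. The 10 genes were also chosen with earlier results of these data known. The 3 comparisons share the control libraries. For the 8 genes the median log2 fold change was -0.05 for EGCG, 0.01 for resveratrol and -0.05 for the combination, beside medians of all tested genes between -0.0015 and 0.0037.

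**Figure D1:**
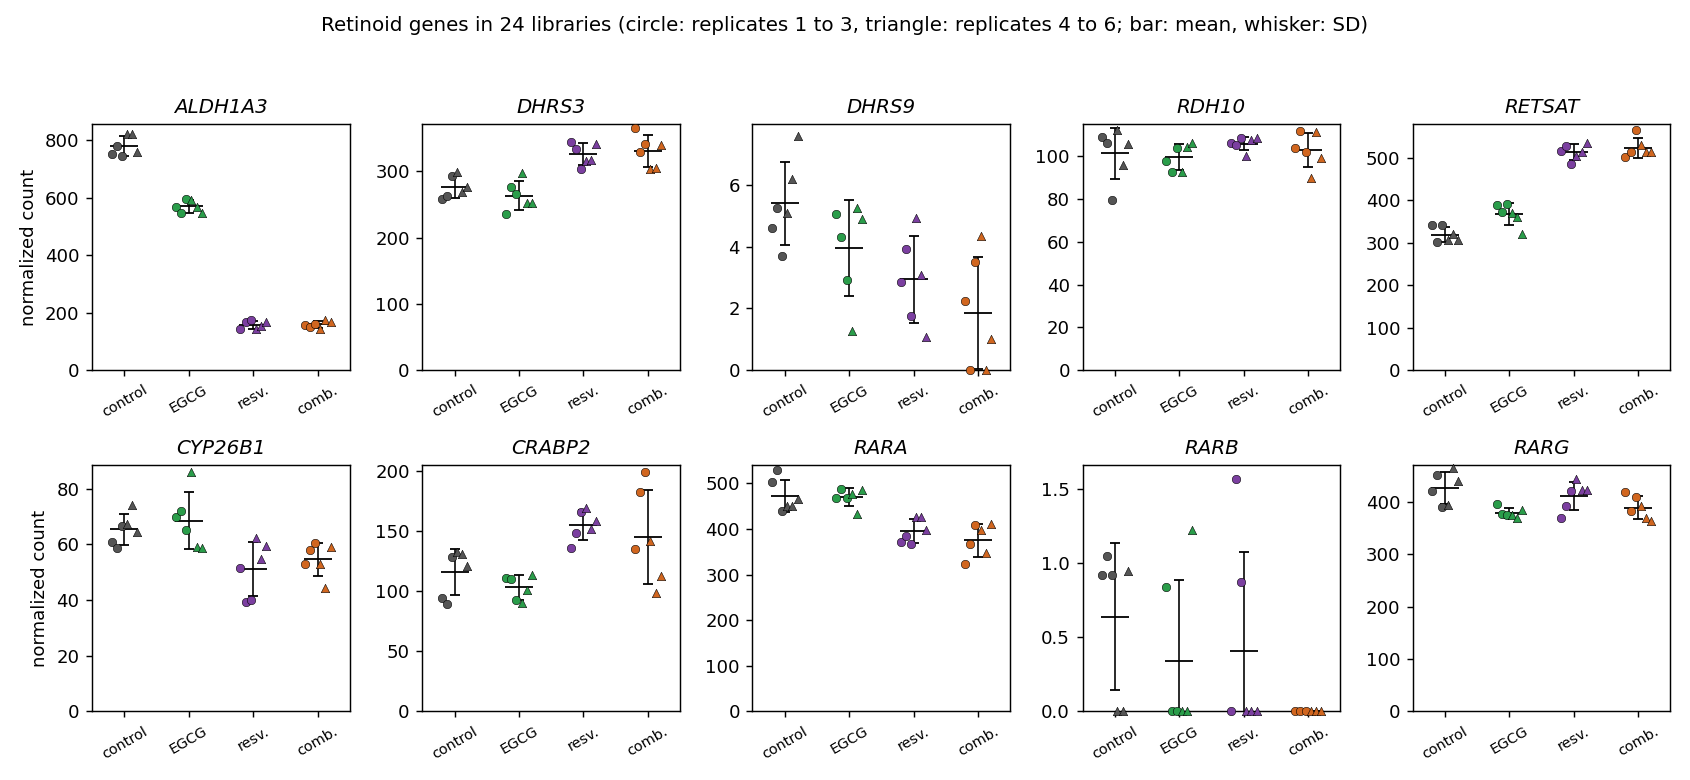
Normalized counts of the 10 retinoid genes (y axis, each panel starting at 0) in the 6 libraries of each group (x axis), with circles for replicates 1 to 3, triangles for replicates 4 to 6, a bar for the mean and whiskers for the SD. ALDH1A3 falls from 745 to 823 in the control to 175 or less with resveratrol, RETSAT stands higher with resveratrol and the combination, and the combination libraries of CRABP2 spread from 98.6 to 199.

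ALDH1A3 (ENSG00000184254, chr15:100877714-100916626, plus strand, GRCh38) had the largest change of the 8 tested genes. Its normalized count, the raw count divided by the size factor of the library, ran from 745 to 823 in the untreated control with a median of 769.9. With EGCG it ran from 546 to 597 (median 568), with resveratrol from 143 to 175 (median 160.1) and with the combination from 142 to 176 (median 159.6). Every EGCG library thus lay below every control library, and every library with resveratrol lay below every library without it. With EGCG the log2 fold change was -0.45 (SE 0.04, edgeR adjusted p = 2.06e-09), to 0.732 of the control. With resveratrol it was -2.29 (SE 0.05, edgeR adjusted p = 4.58e-29), to 0.204 of the control, and with the combination it was -2.29 (SE 0.05, edgeR adjusted p = 4.73e-29), to 0.205 of the control. Against EGCG alone, the combination gave -1.84 (SE 0.05, edgeR adjusted p = 1.65e-25).

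Where both agents were present, ALDH1A3 did not differ detectably from resveratrol alone: the log2 difference was 0.0035 with a 95% confidence interval from -0.13 to 0.13. The effect of EGCG beside resveratrol therefore lay 0.45 above its effect alone on the log2 scale, and this interaction was called (SE 0.08, 95% confidence interval 0.30 to 0.61, edgeR adjusted p = 0.00239). It was the only called interaction among the 8 tested retinoid genes, where 0.265% of all tested genes had one (0.207% upward and 0.0582% downward). In replicates 4 to 6 alone the interaction was 0.56 (edgeR adjusted p = 0.0292), and in replicates 1 to 3 alone it was 0.35 and not called (edgeR adjusted p = 0.624). The fall with EGCG alone was called in both sets, with log2 fold changes of -0.41 and -0.49.

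The window before the start site of ALDH1A3 that RefSeq gives is printed here because this gene carries the largest change of the 8. The capitals mark both matches to GCGTG, the core of the xenobiotic response element that the aryl hydrocarbon receptor is known to bind, one of them on the other strand as CACGC. The window, chr15:100879581-100879830 (GRCh38.p14, plus strand), ends 1 base before that start site and lies inside the span of the gene in the GENCODE annotation.
ALDH1A3: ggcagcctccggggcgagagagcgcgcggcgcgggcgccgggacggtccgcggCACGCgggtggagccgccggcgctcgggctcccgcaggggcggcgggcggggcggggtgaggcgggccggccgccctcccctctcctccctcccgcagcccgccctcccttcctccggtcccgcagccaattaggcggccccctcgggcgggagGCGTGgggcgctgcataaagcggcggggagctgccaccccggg
The matches begin 197 and 43 bases before the start site. On both strands of such windows of 250 bases, 32.2% of the 35116 promoters in the table hold at least 1 GCGTG, so a match is common. The retinoid half-sites searched were AGGTCA, the form most often given for these receptors, and its variants, of which GGGTCA occurs before RETSAT, GGTTCA is the first of the pair before RARB printed further on, and AGTTCA the other. Of all promoters 33.8% hold one. Neither a half-site nor a direct repeat of half-sites with 1, 2 or 5 bases between them was found in the letters of ALDH1A3.

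A lncRNA gene, ALDH1A3-AS1, overlaps ALDH1A3 on the opposite strand, with a mean of 28.7 raw counts per library against 424 for ALDH1A3. It was called lower with resveratrol (log2 fold change -0.82, SE 0.18, edgeR adjusted p = 0.000227) and with the combination (-0.75, SE 0.18, edgeR adjusted p = 0.000675), and with EGCG it was not called (-0.25, edgeR adjusted p = 0.664). The library kit kept the strand of the RNA, but the strand setting of the counting is not given in the sources used here, so reads of this pair may not be separated.

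ALDH1A3 is 1 of 3 genes of the ALDH1A family for the step from retinal to retinoic acid. The others were low: ALDH1A1 had 1.85 ± 0.239 FPKM and ALDH1A2 0.0188 ± 0.0235 FPKM in the untreated control (n = 6), so that ALDH1A3 made up 90.0% ± 1.202 of the summed FPKM of these 3 genes. This sum was chosen after the values were seen, and it holds no enzyme outside this family. It was 18.6 ± 0.842 FPKM in the control and 14.1 ± 0.550 FPKM with EGCG. Resveratrol gave 4.75 ± 0.321 FPKM and the combination 4.76 ± 0.266 FPKM. The share of ALDH1A3 in it was 86.9% ± 1.81 with EGCG, 71.5% ± 2.97 after resveratrol and 71.8% ± 3.51 with both agents. ALDH1A1 itself fell with resveratrol (log2 fold change -0.45, SE 0.12, edgeR adjusted p = 0.00269) and with the combination (-0.49, SE 0.13, edgeR adjusted p = 0.00144), by less than ALDH1A3, while ALDH1A2 had too few counts for a test.

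RETSAT (ENSG00000042445, chr2:85341955-85354531, minus strand, GRCh38), the saturase that turns retinol into dihydroretinol, rose in each treatment. Its normalized count ran from 301 to 342 (median 313) in the untreated control and from 320.2 to 391 (median 371) with EGCG. With resveratrol it ran from 485 to 536 (median 514) and with the combination from 502 to 566 (median 514). The libraries with EGCG overlapped the controls, and those with resveratrol or the combination lay above all others. The log2 fold change was 0.21 with EGCG (SE 0.05, edgeR adjusted p = 0.0196), 0.69 with resveratrol (SE 0.05, edgeR adjusted p = 6e-15) and 0.72 with the combination (SE 0.05, edgeR adjusted p = 1.62e-15). Within replicates 1 to 3 the rise with EGCG came to 0.23 and within replicates 4 to 6 to 0.18, and neither set alone gave a call (edgeR adjusted p = 0.29 and 0.495). The combination lay 0.03 above resveratrol alone (95% confidence interval -0.06 to 0.12), which was not called.

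The window before the RefSeq start site of RETSAT, chr2:85354529-85354778 (GRCh38.p14, minus strand), is printed here because RETSAT carries the largest rise among the 8 tested genes. The capitals mark its only match to a retinoid half-site, GGGTCA, which begins 147 bases before the start site.
RETSAT: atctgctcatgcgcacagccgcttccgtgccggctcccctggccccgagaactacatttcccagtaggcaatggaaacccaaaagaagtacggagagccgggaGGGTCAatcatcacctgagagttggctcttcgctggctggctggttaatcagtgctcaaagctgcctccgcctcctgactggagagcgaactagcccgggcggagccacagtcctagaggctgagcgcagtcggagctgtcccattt
It holds no GCGTG and no direct repeat of half-sites with 1, 2 or 5 bases between them. The antioxidant response core TGACNNNGC, which 10.9% of promoters hold, was found in neither of these 2 windows. The gene ELMOD3 starts in the opposite direction at this end of RETSAT and overlaps it, with a mean of 85.4 raw counts against 438 for RETSAT. ELMOD3 also rose with resveratrol (log2 fold change 0.36, SE 0.09) and with the combination (0.54, SE 0.09), and reads of the overlap may not be separated.

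Of the genes for the reversible step between retinol and retinal, DHRS3 rose with resveratrol, and RDH10 was not called in any comparison. DHRS3 (chr1:12567910-12618210, minus strand), the retinaldehyde reductase, ran from 258 to 299.9 normalized counts in the untreated control (median 273) and from 236 to 298 with EGCG (median 259). With resveratrol it ran from 304 to 345 (median 325) and with the combination from 303 to 365 (median 335), above every library without resveratrol. The log2 fold change was 0.24 with resveratrol (SE 0.06, edgeR adjusted p = 0.000399) and 0.26 with the combination (SE 0.06, edgeR adjusted p = 0.000146), and with EGCG it was -0.08 and not called. DHRS3 is known as a gene that retinoic acid itself induces.

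RDH10, the main retinol dehydrogenase of many tissues, had mean normalized counts of 101 ± 12.04, 99.5 ± 6.09, 106 ± 3.17 and 103 ± 8.15 in the control, EGCG, resveratrol and combination groups. Its log2 fold changes against the control were -0.02, 0.07 and 0.03, with 95% confidence intervals that together ran from -0.18 to 0.23. RPL7, a ribosomal protein gene, overlaps RDH10 on the opposite strand, with a mean of 4882 raw counts against 104 for RDH10. RPL7 fell with resveratrol (log2 fold change -0.36, SE 0.03, edgeR adjusted p = 9.51e-13), and reads of the overlap may not be separated.

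DHRS9, another retinol dehydrogenase, had between 0 and 8 raw counts in a library. The 6 libraries held 33 counts in the untreated control, 25 with EGCG, 19 after resveratrol and 11 with both agents, where 2 libraries had 0. The mean normalized count was 5.41 ± 1.35 in the control and 1.85 ± 1.82 with the combination, and the groups overlapped. In a two-sided exact permutation test of 6 libraries against 6, the combination against the control gave p = 0.00433 and resveratrol p = 0.013. The smallest possible p of this test is 0.00216, and 10 such tests of DHRS9 and RARB were made. With Benjamini-Hochberg adjustment over these 10, the permutation test gave 0.0433 for the combination and 0.065 for resveratrol. In a fit without the filter, over all genes that had a count, the log2 fold change of DHRS9 was -1.44 with the combination (SE 0.48, edgeR adjusted p = 0.0135 over 33693 genes) and -0.83 with resveratrol (SE 0.43, edgeR adjusted p = 0.167), so the fall with resveratrol alone was not called there.

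CYP26B1, which breaks retinoic acid down and is itself known to be induced by it, had few counts and wide groups. Its normalized count ran from 58.8 to 74.2 in the untreated control (median 65.5), from 58.7 to 86.1 with EGCG (median 67.4), from 39.3 to 62.3 with resveratrol (median 53.1) and from 44.2 to 60.5 with the combination (median 55.5). The groups overlapped in all comparisons. It fell with resveratrol (log2 fold change -0.36, SE 0.11, edgeR adjusted p = 0.00729), by -0.51 within replicates 1 to 3, while replicates 4 to 6 alone gave -0.22 and no call (edgeR adjusted p = 0.282). With the combination the log2 fold change was -0.25 (SE 0.11, edgeR adjusted p = 0.0665), a call that was lost when 1 of 9 of the 24 libraries was left out and in replicates 1 to 3 alone (-0.11, edgeR adjusted p = 0.593). Its relative CYP26A1 had mean normalized counts of 15.6, 11.5, 18.1 and 13.5 in the 4 groups and was not called in any of the 3 comparisons with the control, and CYP26C1 had 2 raw counts in all.

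CRABP2, the carrier of retinoic acid to its receptors, rose with resveratrol. Its normalized count ran from 89.3 to 133 in the untreated control (median 124), from 89.96 to 114 with EGCG (median 105) and from 136 to 169 with resveratrol (median 155.0). Every resveratrol library lay above every control library, and the log2 fold change was 0.42 (SE 0.12, edgeR adjusted p = 0.00323). With EGCG it was -0.17 and not called.

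With the combination CRABP2 ran from 98.6 to 199 (median 139) and overlapped every other group. The pooled log2 fold change against the control was 0.34 (SE 0.12, edgeR adjusted p = 0.0175), but the 2 sets of replicates disagreed. Replicates 1 to 3 of the combination had a mean of 172 against 104 in their controls. Replicates 4 to 6 had 118 against 128, a log2 fold change of -0.12 (edgeR adjusted p = 0.439). Against resveratrol alone, the combination gave 0.21 in replicates 1 to 3 (edgeR adjusted p = 0.416) and -0.44 in replicates 4 to 6 (edgeR adjusted p = 0.0311). Leaving out combination replicate 3, the highest library at 199, also lost the call against the control, with a log2 fold change of 0.21. The pooled rise with the combination therefore rests on replicates 1 to 3.

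Among the receptors, RARA fell with resveratrol, RARG differed by small amounts, and RARB was all but absent from the counts. RARA (chr17:40309180-40357643, plus strand) ran from 438 to 529 normalized counts in the untreated control (median 458) and from 433 to 488 with EGCG (median 472). With resveratrol it ran from 368 to 426 (median 391) and with the combination from 322 to 411 (median 382), below every library without resveratrol. The log2 fold change was -0.25 with resveratrol (SE 0.06, edgeR adjusted p = 0.000189) and -0.32 with the combination (SE 0.06, edgeR adjusted p = 6.86e-06), and with EGCG it was -0.01 (95% confidence interval -0.12 to 0.10). In replicates 4 to 6 alone the fall with resveratrol was -0.13 and not called (edgeR adjusted p = 0.123).

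RARG, the main retinoic acid receptor of epidermis, had mean normalized counts of 427 ± 30.4 in the untreated control, 379 ± 9.60 with EGCG, 412 ± 26.3 after resveratrol and 389 ± 21.8 with both agents, and all groups overlapped with the control. The log2 fold change was -0.17 with EGCG (SE 0.05, edgeR adjusted p = 0.0958) and -0.13 with the combination (SE 0.05, edgeR adjusted p = 0.0271). Leaving out 1 library lost the call with EGCG for 15 of the 24 libraries, and neither set of replicates alone gave that call. With counts scaled by library size alone, both calls were lost, with log2 fold changes of -0.16 and -0.05.

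RARB had 4 raw counts over the 6 control libraries, 2 with EGCG, 3 after resveratrol and 0 of 48612749 counts with both agents, which allows up to 0.0617 CPM (counting error only). In two-sided exact permutation tests of 6 libraries against 6, the combination and the control gave p = 0.0606, and each single agent and the control gave p = 0.437. With Benjamini-Hochberg adjustment over the 10 permutation tests of DHRS9 and RARB, these values became 0.162 and 0.455. In the fit over all genes that had a count, RARB was called lower with the combination (edgeR adjusted p = 0.0772 over 33693 genes), a call that rests on 4 counts against 0 and that the permutation test did not give. RARB is known for the element to which retinoic acid receptors bind before the start site of one of its transcripts, and that stretch is printed here because it is the only direct repeat of half-sites that the search found before any start site of the members in the promoter table. It lies in chr3:25428163-25428262 (GRCh38.p14, plus strand), the 100 bases before that start site. Both half-sites of the repeat and the 5 bases between them are in capitals. A further half-site, GGGTCA, begins 83 bases before the start site and is left in small letters.
RARB: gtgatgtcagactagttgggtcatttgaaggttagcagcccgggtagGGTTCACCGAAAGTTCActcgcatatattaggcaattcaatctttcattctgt
The repeat begins 53 bases before the start site. Of the 35116 promoters, 26 hold such a repeat in 250 bases on either strand (0.0740%). The promoter table held 9 of the 10 retinoid genes, in 19 windows.

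**Figure D2:**
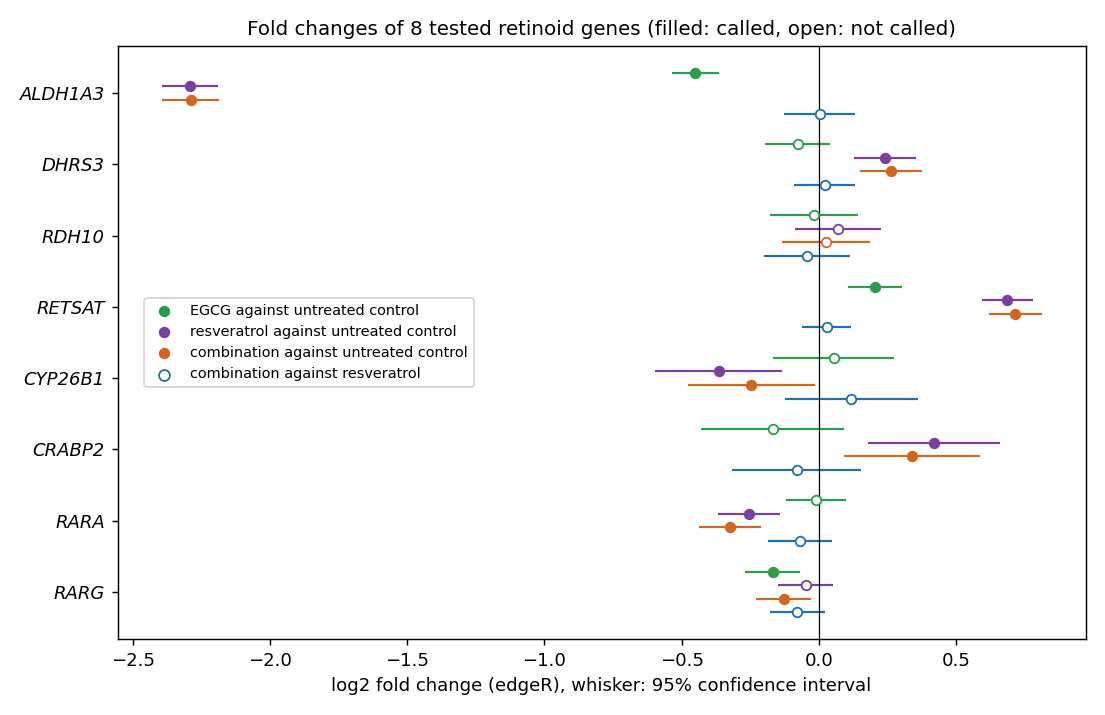
Log2 fold changes (x axis, edgeR) of the 8 tested retinoid genes (y axis) in 4 comparisons, with whiskers for the 95% confidence interval, filled points for called and open points for not called changes. ALDH1A3 lies at -2.29 with resveratrol and with the combination, and all 8 points of the combination against resveratrol are open.

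Beside resveratrol, EGCG changed none of the 8 tested retinoid genes by this test: 0 were called between the combination and resveratrol, where 7.86% of all tested genes were (4.01% higher and 3.86% lower), and none of the 8 had an unadjusted p under 0.05. The log2 differences ran from -0.08 (CRABP2) to 0.12 (CYP26B1), and their 95% confidence intervals together from -0.32 to 0.36. The DESeq2 Wald test also called none. The groups overlapped for all 8 genes, where 3.2% of all tested genes had groups that did not. Between the combination and EGCG, 6 of 8 were called, where 57.8% of all tested genes were (28.7% higher and 29.1% lower): RETSAT (log2 difference 0.51), CRABP2 (0.51) and DHRS3 (0.34) higher, ALDH1A3 (-1.84), RARA (-0.31) and CYP26B1 (-0.30) lower. Without EGCG replicate 4 the call of CYP26B1 was lost (-0.22), as it was in replicates 1 to 3 alone (-0.26, edgeR adjusted p = 0.149). That of CRABP2 was lost in replicates 4 to 6 alone (0.21, edgeR adjusted p = 0.179, against 0.74 in the other set). The groups did not overlap for 4 of these genes, where that held for 27.5% of all tested genes.

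The other genes of the pathway were counted in 5 lists of 91 genes in all, none of them among the 10, and 58 of the 91 passed the filter on low counts. With EGCG 3 of the 58 were called, all of them lower, with resveratrol 25 were higher and 20 lower, and with the combination 23 were higher and 23 lower. Between the combination and resveratrol 3 were higher and 7 lower. Of all tested genes, 1.76% were called with EGCG, 28.9% were higher and 28% lower with resveratrol, 29.9% were higher and 29.9% lower with the combination, and 7.86% were called between the combination and resveratrol. The counts of the lists given next stand against these shares, and none of them is by itself a result about its list. The median log2 fold change of the 58 genes was -0.03 for EGCG, 0.14 for resveratrol and 0.06 for the combination.

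Of 18 genes for uptake, binding and ester storage of retinoids, 8 were tested. With the combination 4 rose and 1 fell, the median log2 fold change being 0.26, and with resveratrol 5 rose and 1 fell, with a median of 0.25, beside 59.8% and 56.9% of all tested genes called either way. LRAT, which esterifies retinol for storage, had a mean normalized count of 24.2 ± 7.24 in the untreated control and 43.2 ± 9.45 with the combination (log2 fold change 0.85, SE 0.17, edgeR adjusted p = 6.44e-05). FABP5, which can carry retinoic acid to PPARδ, was the only gene of the list that fell in all 3 treatments, with EGCG (-0.17), resveratrol (-0.11) and the combination (-0.34, SE 0.04, edgeR adjusted p = 1.32e-08), and with the combination it was lower than with resveratrol alone (-0.23, SE 0.04, edgeR adjusted p = 0.000555).

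Of 28 other enzymes of the retinol, retinal and retinoic acid steps, 17 were tested. With the combination 6 rose and 7 fell, the median log2 fold change being 0.05, and with resveratrol 7 rose and 7 fell, with a median of 0.21 (59.8% and 56.9% of all tested genes were called). AKR1C3, an aldo-keto reductase that can reduce retinal, had a mean normalized count of 68.3 ± 10.97 in the untreated control, 66.4 ± 11.9 with EGCG, 249 ± 19.9 after resveratrol and 255 ± 40.7 with both agents (log2 fold change 1.91, SE 0.11, edgeR adjusted p = 1.91e-17). RDH16, a retinol dehydrogenase, rose from 8.04 ± 3.14 to 16.9 ± 3.05 (1.07, SE 0.23, edgeR adjusted p = 0.000171). CYP1A1 and CYP1B1, P450 enzymes best known for the metabolism of xenobiotics that can also act on retinoids, had the largest falls. CYP1A1 had a mean normalized count of 175 ± 17.6 in the control, 126 ± 13.6 with EGCG, 7.56 ± 2.74 after resveratrol and 8.72 ± 2.80 with both agents (-4.28, SE 0.14, edgeR adjusted p = 8.56e-24). CYP1B1 had 743 ± 30.9, 562 ± 46.3, 117 ± 12.51 and 108 ± 9.17 in the same order (-2.77, SE 0.06, edgeR adjusted p = 4.94e-29). Both were also called lower with EGCG alone, by -0.46 and -0.40 on the log2 scale.

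Of 14 receptor partners and co-regulators, 13 were tested. With the combination 3 rose and 7 fell, the median log2 fold change being -0.14, where 29.9% of all tested genes rose and 29.9% fell. PPARD, a nuclear receptor that can bind retinoic acid delivered by FABP5, rose with resveratrol (0.35, SE 0.04) and further with the combination (0.60, SE 0.04, edgeR adjusted p = 4.03e-14), and the combination differed from resveratrol alone by 0.25 (SE 0.04, edgeR adjusted p = 0.000228). RXRA, the partner of the retinoic acid receptors in epithelium, fell with the combination (-0.28, SE 0.04, edgeR adjusted p = 2.75e-07) and lay 0.14 below its level with resveratrol alone on the log2 scale (edgeR adjusted p = 0.0378). Of the coactivators, NCOA3 rose (0.25) and NCOA2 fell (-0.23, edgeR adjusted p = 0.0129) with the combination.

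Of 22 genes known to be induced by retinoic acid in one cell type or another, 14 were tested. With resveratrol 8 rose and 3 fell, the median log2 fold change being 0.28, and with the combination 9 rose and 3 fell, with a median of 0.30. Of all tested genes 28.9% rose and 28% fell with resveratrol, and 29.9% went each way with the combination. HBEGF, a ligand of the EGF receptor, had a mean normalized count of 175 ± 17.8 in the untreated control, 210 ± 29.9 with EGCG, 329 ± 21.1 after resveratrol and 452 ± 44.6 with both agents (log2 fold change 1.37, SE 0.08, edgeR adjusted p = 1.18e-17). PLAAT4, also called retinoic acid receptor responder 3, rose from 5.19 ± 2.53 to 12.4 ± 3.53 (1.26, SE 0.28, edgeR adjusted p = 0.000249). TGM2, the tissue transglutaminase that retinoic acid induces in many cells, fell with the combination (-0.61, SE 0.09, edgeR adjusted p = 7.78e-07), and so did MEIS2, a homeobox gene (-0.52, SE 0.08, edgeR adjusted p = 7.82e-07). ICAM1, an adhesion molecule, was higher with the combination than with resveratrol alone (0.55, SE 0.11, edgeR adjusted p = 0.00196), and KRT13, a keratin of mucosal epithelium, was lower (-0.52, SE 0.13, edgeR adjusted p = 0.0163). Members of this list are known targets of other signals too, HBEGF and ICAM1 among them.

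Of 9 keratinocyte differentiation genes that retinoic acid is known to lower, 6 were tested. With the combination 1 rose and 5 fell, the median log2 fold change being -0.42, and with resveratrol 1 rose and 3 fell, with a median of -0.19, where 29.9% and 28% of all tested genes fell. SPRR1B, a cornified envelope precursor, had a mean normalized count of 1707 ± 239 in the untreated control, 1781 ± 99.8 with EGCG, 1294 ± 83.1 after resveratrol and 976 ± 73.8 with both agents (-0.80, SE 0.06, edgeR adjusted p = 3.63e-13). IVL (involucrin) fell from 445 ± 85.3 to 263 ± 28.9 (-0.75, SE 0.10, edgeR adjusted p = 9.26e-08). TGM1, the transglutaminase of the cornified envelope, rose by 0.21 (SE 0.08, edgeR adjusted p = 0.0271). Beside resveratrol, EGCG lowered 4 of the 6, where 3.86% of all tested genes were called lower, with KRT1, a keratin of suprabasal cells, the farthest down (-0.54, SE 0.10, edgeR adjusted p = 0.000871).

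**Figure D3:**
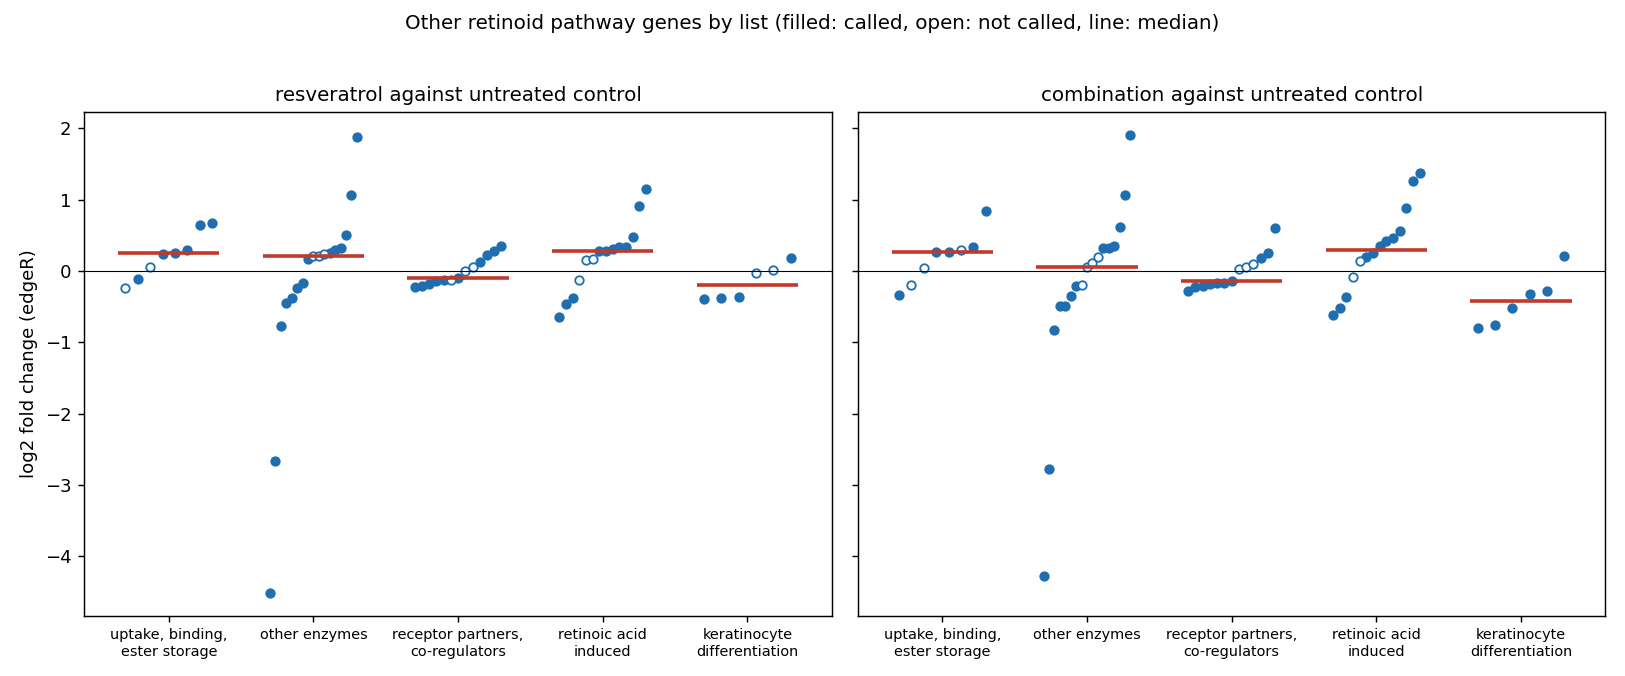
Log2 fold changes (y axis, edgeR) of the 58 tested genes of the 5 pathway lists (x axis), with resveratrol on the left and the combination on the right, filled points for called and open points for not called genes, and a line at the median of each list. CYP1A1 at -4.28 and CYP1B1 at -2.77 stand far below the other genes with the combination, and the keratinocyte differentiation list has its median at -0.42.

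The genes whose pattern over the 24 libraries was nearest to that of ALDH1A3 were found by the root mean square difference of log2 CPM. These are counts scaled to the library total as adjusted by TMM, the normalization of the edgeR fit. Each gene was centred on its own mean. CYP1B1 was the nearest of all tested genes (difference 0.26), followed by GGT4P (0.29), a pseudogene, DHRS2 (0.32), a dehydrogenase of the same broad family as DHRS3, IL24 (0.36), a cytokine, and MGAM (0.41), an intestinal glucosidase. Their log2 fold changes ran from -2.66 to -1.58 with resveratrol, from -2.77 to -1.65 with the combination and from -0.40 to -0.16 with EGCG. The genes nearest to DHRS3 were ACOT2, LRPAP1, UBL7, COPG1 and LIMK2 (differences of 0.09), and those nearest to CRABP2 were GJB6, PDLIM4, TBC1D10A, ITPKC and KRT15 (0.19 to 0.20). The measure is a description of 24 libraries that share 4 conditions.

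**Figure D4:**
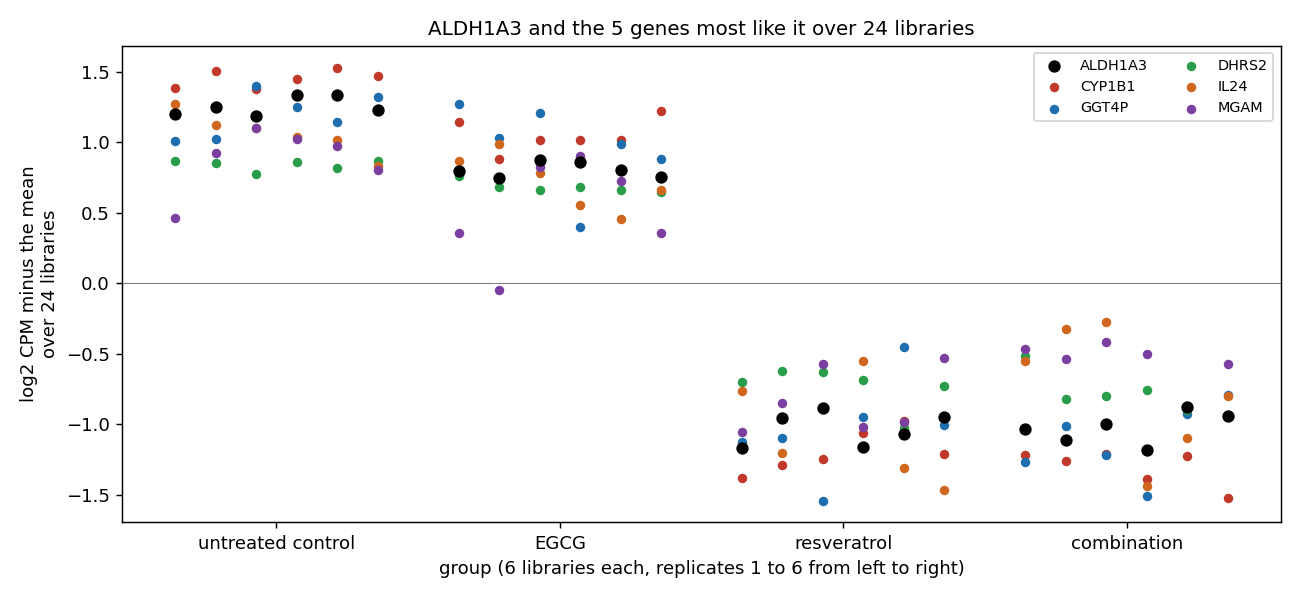
Log2 CPM minus the mean over the 24 libraries (y axis) of ALDH1A3 (large black points) and the 5 genes nearest to it, in the 6 libraries of each group (x axis). All 6 genes lie low in the 12 libraries with resveratrol, and the points of CYP1B1 run closest to those of ALDH1A3.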

How the data were processed

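Total RNA of 24 libraries was sequenced from stranded mRNA libraries (TruSeq). Per the submitters' processing notes and the methods, the authors used Trimmomatic 0.36 for trimming, HISAT2 2.0.4 for alignment to GRCh38 and SAMtools 1.3.1 for handling alignments. The counting program, its strand setting, its treatment of reads that match several genes and the annotation release are not given in the sources used here. The authors deposited raw counts per gene, normalized counts (a signal, in which each library's raw counts are scaled by its size factor) and FPKM values. Tests used the raw counts, values per library are the normalized counts, and levels between genes are the FPKM values.

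Gene IDs were matched to symbols, strands and positions with GENCODE v44. One edgeR model (version 4.0.16, R 4.3.3) covered the raw counts of the 24 libraries (TMM, filterByExpr by group, quasi-likelihood test, Benjamini-Hochberg adjustment over 15476 genes). The biological coefficient of variation was 5.32%. Totals ran from 7034872 to 11735574 counts. Counting error was large for DHRS9 and RARB. It weighs more the fewer the counts, as for CYP26B1 with group means of 52.8 to 68.5 raw counts. It was not set against the spread between libraries gene by gene. Log2 CPM used a prior count of 2. Promoters of 250 bases before the RefSeq start sites (GRCh38.p14) were searched on both strands for GCGTG, TGACNNNGC, the retinoid half-sites and direct repeats of these with 1, 2 or 5 bases between them. Scripts were tested on simulated data. Libraries were grouped by their labels. Interaction is the EGCG effect beside resveratrol minus the EGCG effect alone.

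The members, the pathway lists, the limits and the alternatives were chosen with earlier results of these data known. Named are all 10 members, and of each list the 2 largest called rises and falls with the combination and the largest called rise and fall of the other comparisons. Of these, 2 are not reported here. The alternatives were DESeq2 1.42.0 (Wald test, and its size factors in edgeR), library size alone, other filters, an adjusted p under 0.05, only the groups compared, the replicate number as a block, replicates 1 to 3 and 4 to 6 as a term or each alone, and each library left out.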

Additional observations from a re-analysis of the deposited data

Results flagged for a closer look

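RDH10 with resveratrol had 1 library, replicate 4, at a normalized count of 99.9, below the other 5. The gap to the nearest of them was 0.626 of the range of the group, just over Dixon's 95% limit for 6 libraries. In 39 groups tested for the members, chance flags about 1 in 20. Without that library RDH10 was still not called.

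The effect of EGCG differed with and without resveratrol, by the test of the interaction in edgeR, for ALDH1A3 by 0.45 on the log2 scale (adjusted p = 0.00239), for SPRR1B by -0.47 (adjusted p = 0.00958) and for KRT10, a suprabasal keratin, by -0.24 (adjusted p = 0.0185). For ALDH1A3 the sign means that EGCG lowered it in the absence of resveratrol and not beside it. For SPRR1B and KRT10 it means that the effect of EGCG beside resveratrol lay below its effect alone.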

How the results depend on the processing

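Of the fold changes of the 8 tested retinoid genes under the alternatives that left out no single library, 476 kept their direction and their side of the limits, 24 lost the call, 3 gained it and 17 changed sign. Of the 24 lost calls, those of RARG and CYP26B1 make up most. Those of ALDH1A3 (interaction), RETSAT (EGCG), RARA and CRABP2 were lost within replicates 1 to 3 or 4 to 6, which hold fewer samples. All calls of ALDH1A3 against the untreated control and against EGCG, and of RETSAT with resveratrol and with the combination, stayed past the limits in every alternative.

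With library size alone, RARG with resveratrol moved to 0.039 and ALDH1A3 between the combination and resveratrol to -0.0020 (log2), and the median of all genes moved to 0.092 with resveratrol. In replicates 1 to 3 alone, values changed sign for RDH10 (0.010) and CRABP2 (0.0072) with EGCG, for ALDH1A3 (-0.051), CRABP2 (0.21) and RARG (0.031) between the combination and resveratrol, and for RARA (0.011) in the interaction. In replicates 4 to 6 alone, they did for CYP26B1 (-0.048) and RARA (0.017) with EGCG, RDH10 (-0.067) and CRABP2 (-0.12) with the combination, DHRS3 (-0.036) and CYP26B1 (-0.17) between the combination and resveratrol, RDH10 (-0.024) between the combination and EGCG, and CYP26B1 (-0.12) and CRABP2 (-0.11) in the interaction. Of these, CRABP2 with the combination was called in the pooled fit, and the cause of its change was not tested.

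The retinoid genes called with EGCG were 1 in either set of replicates alone (3 pooled), those called between the combination and resveratrol were 1 in replicates 4 to 6 (0 pooled), and interactions of retinoid genes were 0 in replicates 1 to 3 (1 pooled). Pathway genes called with EGCG (3 pooled) were 5 when every gene with a count was tested, 5 with these sets as a term and 1 in replicates 1 to 3, and pathway genes with an interaction (2 pooled) were 1 in either set. Over all genes, 41 interactions were called, 69 by the DESeq2 Wald test, 92 when every gene with a count was tested, 85 with the replicate block, 79 with these sets as a term, 6 in replicates 1 to 3 and 24 in replicates 4 to 6. EGCG gave 273 genes, and 84 and 85 within the sets. The combination against resveratrol gave 1217, 803 with an adjusted p under 0.05 and 399 in replicates 4 to 6.

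Leaving out 1 library, the log2 value ran from -0.024 to 0.035 for ALDH1A3, from -0.21 to 0.0041 for CRABP2 and from -0.0065 to 0.044 for DHRS3 between the combination and resveratrol. It ran from -0.039 to 0.17 for CRABP2, from -0.011 to 0.13 for CYP26B1 and from -0.057 to 0.039 for RDH10 in the interaction, from -0.0069 to 0.10 for CYP26B1, from -0.033 to 0.022 for RARA and from -0.083 to 0.013 for RDH10 with EGCG, and from -0.039 to 0.060 for RDH10 with the combination. The pathway genes called with EGCG ran from 2 to 5 and those with an interaction from 2 to 4, reached without combination replicate 3.

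Libraries of the same number were not treated as paired, since the labels give the number no meaning and the correlation of their deviations from the group means (median 0.049 over 36 pairs) was above 0.1 in 2 pairs and not in all. As a hint from the data and not the design, 14 of 24 libraries correlated best with a library of their own number. The median correlation was 0.028 for other numbers within the same set of replicates and -0.041 between the sets. How many libraries would do so by chance was not tested. With the replicate block, the call of RARG with EGCG was lost (log2 -0.17, edgeR adjusted p = 0.1), and no other call of the 8 genes changed. By Pearson correlation in place of the root mean square difference, 2 of the 5 genes nearest to ALDH1A3, 0 of those nearest to DHRS3 and 1 of those nearest to CRABP2 were the same.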
